A study of Homo sapiens with 12 samples.

Results

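Gene expression in MDA-MB-231 cells given an siRNA against EZH2 was set against the same cells given a negative control siRNA (siNC), both without TNFalpha. MDA-MB-231 is an established human breast cancer line of the triple-negative, mesenchymal-like kind. The comparison used 6 of the 12 arrays of the series, 3 labelled siEZH2_CTRL and 3 labelled siNC_CTRL, with replicate numbers 1 to 3 in each group. The remaining 6 arrays held siNC or siEZH2 cells given 10 ng/ml TNFalpha for 4 h and cells given siRNA against RelA or RelB, with 1 array per group. Total RNA was hybridised to Illumina bead arrays in 1 colour. The labels do not say whether replicates were separate cultures, so p-values reflect array-to-array spread that could be technical alone. They give no knockdown time, no siRNA sequence and no count of independent EZH2 siRNAs, and describe the control only as a negative control siRNA.

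Genes entered with 1 or more probes detected (p under 0.05) on no fewer than 3 arrays, 12275 genes from 13884 of 22184 probes. Values below are normalized log2 intensities, so a difference of 1 is a 2-fold difference. Differences are siEZH2 minus siNC with their standard error (SE). A gene was called where limma's moderated test gave a Benjamini-Hochberg adjusted p under 0.05 over all 12275 genes. Programmes other than NF-kB, cell cycle and hypoxia are described, through 55 gene lists of pathways and families. These lists were chosen with earlier results of these data known, so their shares and ranks are descriptive.

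EZH2 is the catalytic subunit of Polycomb repressive complex 2 (PRC2), which methylates lysine 27 of histone H3. This mark is known for holding developmental regulators and lineage genes silent, and EZH2 is often abundant in aggressive breast cancers. EED and SUZ12 are the core partners of EZH2, EZH1 is its paralog, and PRC1 is the complex that can read the mark.

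EZH2 measured 9.20, 8.30 and 9.19 on siNC arrays 1, 2 and 3 and 6.54, 5.47 and 6.36 on siEZH2 arrays 1, 2 and 3. Every siEZH2 array lay below every siNC array, for a difference of -2.78 ± 0.37 (SE, n = 3 per group, adjusted p = 0.00538). The gene's other kept probe differed by -3.71. Within replicate pairs 1, 2 and 3 the differences were -2.66, -2.83 and -2.83. In the authors' processed values the difference was -2.03 and the adjusted p 0.0522, so the call was not made there, whereas with the replicate number as a block the same values gave an adjusted p of 7.76e-07. The other 11 PRC2 subunits tested were not called. EED differed by -0.61 (adjusted p = 0.0699), SUZ12 by 0.15 (0.668), EZH1 by -0.06 (0.945) and JARID2, an accessory subunit, by 1.28 (0.0713). With the replicate number as a block, 3 PRC2 subunits were called higher and 5 lower. Of 24 PRC1 subunits tested, PCGF5 alone was called (log2 difference -0.93), and that call was lost on leaving out any of 4 single arrays.

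Over all genes, 968 were called higher in siEZH2 cells (7.89% of those tested) and 849 lower (6.92%), together 14.8%. Of these, 604 were over 2-fold higher and 533 over 2-fold lower, and all 1817 differed in the same direction in all 3 replicate pairs. Both arrays of replicate 2 stood apart, with a background signal of 101.5 and 99.7 against 65.5 to 80.1 on the others. Deviations from the group means ran together within each replicate number, so the number was also fitted as a block, which called 5348 genes (43.6%; 22.3% higher and 21.3% lower), including all 1817. Without both replicate 2 arrays 3802 genes were called (31.0%; 15.9% higher and 15.1% lower). Without both arrays of replicate 1 or of replicate 3 limma called 0 genes, with 1981 and 1720 at an unadjusted p under 0.05. Leaving out siNC replicate 1, siNC replicate 3, siEZH2 replicate 1 or siEZH2 replicate 3 alone gave 794, 611, 725 and 684 calls. SEs, adjusted p-values and single-array omissions, unless the block is named, follow the fit without the block, which leaves the pairing out. The SE of EZH2, 0.37 in that fit, was 0.11 with the block. Counts of list members below also follow the fit without the block. The blocked count and the count without replicate 2, given beside them, are to be read against these larger shares. All 1817 called genes were called with the block, and 1810 were called without replicate 2. Leaving out each array in turn kept 527 in all 6 fits, and the authors' processed values without the block gave 905 of them. The authors' processed values with the block gave 1814 of the 1817, so a call said below to be absent from those values refers to the fit without the block. Below, a call is said to hold on single-array omission where it was made in all 6 of these fits. Each such fit breaks a replicate pair, so a call lost there does not show that the paired differences disagreed. Genes said below not to be called were likewise judged without the block.

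Markers of the line and of other cell types were checked. Of 20 mesenchymal-like breast cancer line markers 18 passed the detection filter (SPARC and TWIST1 did not), with a summed intensity of 76970 to 93060 on siNC arrays and 89390 to 100200 on siEZH2 arrays. Of the 18, TGFBI, MMP1, LOX and NT5E were called higher and CAV1 lower. Luminal markers ESR1, PGR, FOXA1, TFF1, TFF3 and CLDN3 did not pass, and the 14 that did summed to 8328 to 9252 and 6029 to 9027. EPCAM, an epithelial adhesion protein, was the only luminal marker called (log2 difference -1.41). Of 16 blood cell markers 9 passed, with sums of 2379 to 4294 and 2245 to 4174, and CD3D, CD3E, MS4A1, CD79A, SPI1 and TYROBP were among those that did not. CD14 was called higher, and LAPTM5, LCP1, CORO1A and CSF1R lower. Of these, CD14 was detected on only 1 siNC array, and CORO1A and CSF1R on 0 siEZH2 arrays. Fibroblast and endothelial sets kept 3 of 10 and 6 of 10 markers, without COL1A2, PDGFRA, PDGFRB, CDH5 or VWF. The fibroblast sum was 94.05 to 127.4 on siNC arrays and 131.9 to 264 on siEZH2 arrays, with COL1A1 called higher. Its part in the matrix results below was not tested. Endothelial sums were 393.3 to 617 and 371.2 to 511.1. Among all these marker calls, only that of TGFBI held on single-array omission. The authors' processed values did not call MMP1, CD14, LCP1, CORO1A, CSF1R or COL1A1.

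**Figure D1:**
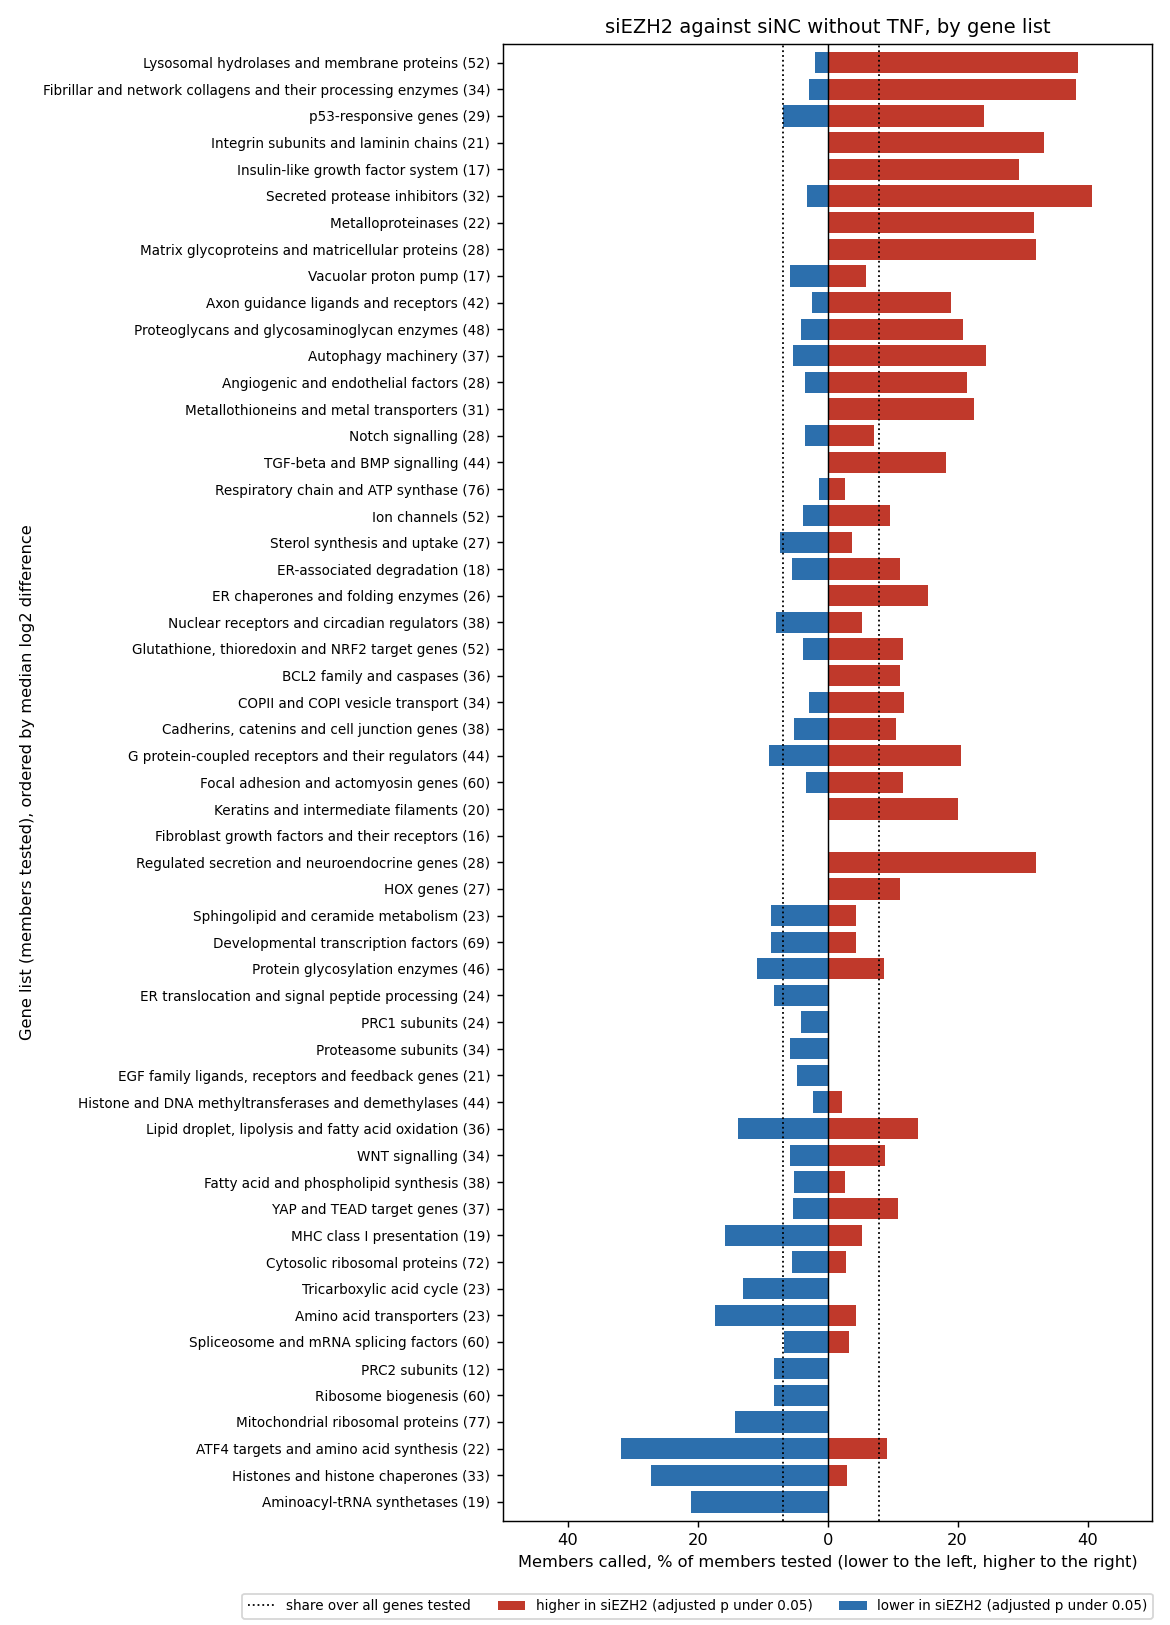
Share of each list's tested members called lower (left, blue) or higher (right, red) in siEZH2 against siNC cells, in percent, with lists ordered by their median log2 difference and the number of members tested in brackets. Dotted lines mark the shares over all genes, 6.92% lower and 7.89% higher. The lysosomal, collagen, laminin and integrin, secreted inhibitor, metalloproteinase, matrix glycoprotein and regulated secretion lists reach past 30% higher, and amino acid synthesis reaches past 30% lower.

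Lysosomal genes had the highest median difference of the 55 lists. The list holds acid hydrolases, which digest protein, glycan and lipid inside the lysosome, with the membrane proteins of that organelle. Of 52 members tested 20 rose and 1 fell, and the median difference was 0.80, against -0.01 over all genes. The block called 35 higher and 1 lower, and the fit without replicate 2 called 32 higher and 1 lower. Leaving out single arrays gave 12 to 23 rises, the lowest being 12 without siNC replicate 3 and 13 without siEZH2 replicate 1 or siEZH2 replicate 3. Differences were above 0 in 46 of the 52. On the TNF arrays, which the fit did not use, the median difference of the list was 0.72.

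Proteases of the lysosome held the steepest rises, with 4 of 13 called and a median of 0.96. CTSB, the cysteine protease cathepsin B, measured 7.79, 7.11 and 7.41 on siNC arrays 1, 2 and 3 and 10.47, 10.21 and 10.42 on siEZH2 arrays 1, 2 and 3. The groups were far apart on every array, for a difference of 2.93 ± 0.22 (SE, n = 3 per group, adjusted p = 0.00238), a 7.63-fold difference. CTSL, cathepsin L, measured 9.10, 10.26 and 9.21 on siNC arrays 1, 2 and 3 and 12.18, 12.72 and 11.79 on siEZH2 arrays 1, 2 and 3, with the replicate 2 array high in each group. Its difference was 2.70 ± 0.37 (SE) (adjusted p = 0.00619), and another CTSL probe gave 2.03. CTSA, the carboxypeptidase that also protects neuraminidase and beta-galactosidase, rose by 1.53, and LGMN, the asparaginyl protease legumain, by 1.42. CTSD, the main aspartic protease, was not called (difference 0.57, adjusted p = 0.287), nor was CTSZ (1.03, 0.339). The lowest protease was CTSK, cathepsin K, at -0.31 (0.497). All of these calls held on single-array omission.

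Glycan-degrading enzymes followed, with 9 of 20 higher, 1 lower and a median of 0.88. HEXA, the alpha subunit of beta-hexosaminidase, measured 6.54, 6.57 and 6.43 on siNC arrays 1, 2 and 3 and 7.91, 8.10 and 7.87 on siEZH2 arrays 1, 2 and 3. All siEZH2 arrays exceeded all siNC arrays, for a difference of 1.45 ± 0.17 (SE) (adjusted p = 0.00428). GLB1 (beta-galactosidase) rose by 1.39, AGA (aspartylglucosaminidase) by 1.39, IDS (iduronate sulfatase) by 1.34 and GAA (acid alpha-glucosidase) by 1.22. FUCA1, a fucosidase, was the member that fell (-0.82, adjusted p = 0.0401). Calls that did not hold on single-array omission were those of IDS, GAA and FUCA1, and IDS and FUCA1 were not called in the authors' processed values.

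Lipid-handling enzymes had 4 of 10 members higher, with a median of 0.80. SMPD1, the acid sphingomyelinase, measured 6.93, 6.42 and 7.17 on siNC arrays 1, 2 and 3 and 8.92, 8.18 and 8.65 on siEZH2 arrays 1, 2 and 3, without overlap between groups, and rose by 1.74 ± 0.28 (SE) (adjusted p = 0.0089). Another SMPD1 probe gave 1.20. PLA2G15, the lysosomal phospholipase, rose by 1.70 and LIPA, the acid lipase, by 1.37. ASAH1, the acid ceramidase, differed by 0.01 (0.994). Among membrane and other proteins 3 of 9 rose, with all 9 differences above 0. GRN, the progranulin precursor taken up into lysosomes, rose by 1.54, SCARB2, the receptor that carries glucocerebrosidase there, by 1.05, and LAMP1, an abundant membrane glycoprotein, by 0.88. LAMP2 differed by 0.10 (0.82). Of these genes, LIPA and LAMP1 lost their call in at least 1 fit without a single array.

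**Figure D2:**
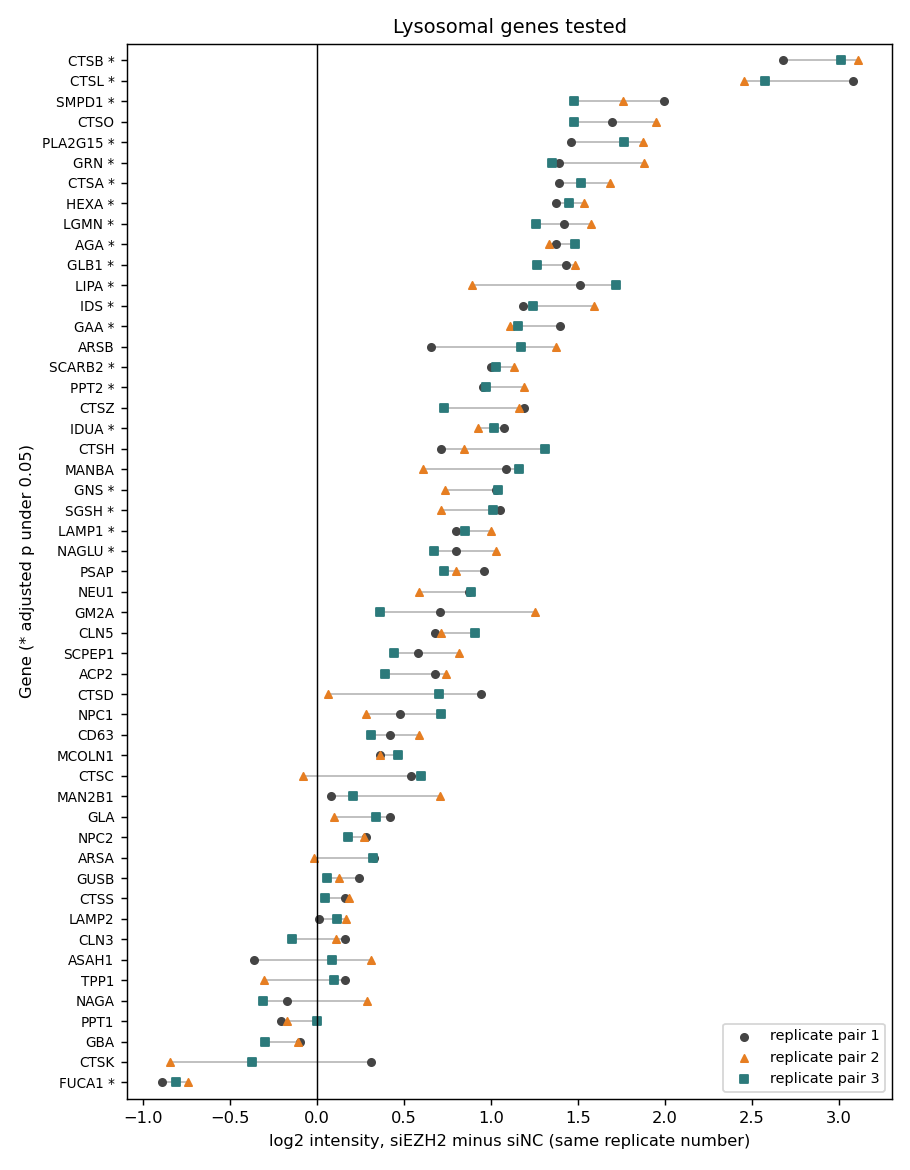
Difference in log2 intensity, siEZH2 minus siNC, in each replicate pair (circle, triangle and square for pairs 1, 2 and 3) for lysosomal genes tested, ordered by their mean difference. Stars mark called genes. CTSB and CTSL lie past 2 in every pair, and most remaining genes lie right of 0 in all 3.

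Many lysosomal genes are known to carry the palindrome TCACGTGA, the centre of the CLEAR element bound by TFEB and its relatives. RefSeq promoter windows (GRCh38.p14, 250 bases before to 50 after the start) were matched for 34 of the 52 genes. TCACGTGA, which reads alike on both strands, stood in 6 of these 34 genes (17.6%) and in 344 of all 35116 windows (0.98%). A gene counted if any of its windows held the motif, so these shares differ in unit. The 6 were CTSA, GAA, LAMP1, SCPEP1, MCOLN1 and CLN3. The first 3 were called higher, while SCPEP1 differed by 0.61 (adjusted p = 0.113), MCOLN1 by 0.40 (0.292) and CLN3 by 0.04 (0.936), so the motif occurred on both sides of the threshold. The stretches up to the start site of 3 called genes and 1 not called are shown with the motif in capitals, on the plus strand at chr20:45891253-45891334, chr17:80101448-80101580, chr13:113297154-113297238 and chr19:7522526-7522623. The GAA and MCOLN1 stretches hold the motif 2 times. LAMP1 also has it 2 times, but its second copy begins 2 bases before the start and runs past the end of the stretch shown.
CTSA: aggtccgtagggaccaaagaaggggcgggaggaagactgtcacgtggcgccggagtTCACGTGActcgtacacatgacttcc
GAA: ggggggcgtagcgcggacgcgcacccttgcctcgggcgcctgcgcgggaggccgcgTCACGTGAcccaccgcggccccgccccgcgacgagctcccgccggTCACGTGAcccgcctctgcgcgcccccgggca
LAMP1: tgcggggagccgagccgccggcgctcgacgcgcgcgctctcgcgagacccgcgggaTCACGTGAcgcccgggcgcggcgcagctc
MCOLN1: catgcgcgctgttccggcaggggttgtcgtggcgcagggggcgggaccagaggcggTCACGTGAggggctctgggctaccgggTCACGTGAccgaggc

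Autophagy genes, whose products enclose cytoplasm in vesicles bound for the lysosome, had 9 of 37 members higher and 2 lower (median 0.30). The block called 16 higher and 5 lower, and the fit without replicate 2 called 15 and 5. Single-array omission gave 3 to 9 rises, with 3 without siNC replicate 3 or siEZH2 replicate 1. GABARAPL1, a member of the ATG8 family that coats autophagosomes, measured 10.24, 10.04 and 10.32 on siNC arrays 1, 2 and 3 and 11.53, 11.33 and 11.84 on siEZH2 arrays 1, 2 and 3. The groups did not overlap, for a difference of 1.37 ± 0.20 (SE) (adjusted p = 0.00717). Its relatives GABARAPL2 and MAP1LC3B rose by 1.20 and 0.98. OPTN, a cargo receptor, rose by 1.30, ATG12, the ubiquitin-like conjugation protein, by 1.39, and ULK1, the kinase that starts the process, by 1.09. ATG4D, an ATG8 protease, and PIK3C3, the lipid kinase VPS34, fell by 0.95 and 0.62. The cargo receptor SQSTM1 differed by 0.61 (adjusted p = 0.694). At least 1 single-array omission ended the calls of GABARAPL2, MAP1LC3B, ATG12, ULK1, ATG4D and PIK3C3, and calls absent from the authors' processed values were those of GABARAPL2 and ULK1.

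The vacuolar proton pump, which acidifies the lysosome, had 1 of 17 subunits called in each direction, a share close to that over all genes, with a median of 0.42. ATP6V0E1 rose by 0.91 and ATP6V1C1 fell by 0.92. With the block 10 subunits were called higher and 2 lower, against 7 and 1 in the fit without replicate 2. Proteasome subunits, which degrade protein outside the lysosome, had 0 of 34 called higher and 2 lower (PSMB4 and PSMA1) in the limma fit, with a median of -0.05. At an unadjusted p under 0.05 3 proteasome subunits were higher, with the block 4 were called higher and 6 lower, and the fit without replicate 2 called 1 and 3. None of these calls held on single-array omission.

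Secreted protease inhibitors had the highest share of calls among the 55 gene lists, 13 of 32 higher and 1 lower, with a median of 0.49. The block called 17 higher and 7 lower, and the fit without replicate 2 called 15 and 6. Leaving out single arrays gave 7 to 12 rises, with 7 without siEZH2 replicate 3 and 8 without siNC replicate 3. The largest rise of all genes was CST1, cystatin SN, a secreted inhibitor of cysteine proteases, which measured 8.61, 6.61 and 8.60 on siNC arrays 1, 2 and 3 and 14.23, 12.11 and 14.18 on siEZH2 arrays 1, 2 and 3. Both replicate 2 arrays were low by about the same amount, and the difference was 5.57 ± 0.74 (SE) (adjusted p = 0.00538), a 47.3-fold difference. Within replicate pairs 1, 2 and 3 the log2 difference was 5.62, 5.50 and 5.57. Omission of a single array broke pair 2, giving 29.8-fold without siNC replicate 2 and 76.8-fold without siEZH2 replicate 2. In all, 5 of 7 cystatins rose. CST2 and CST4, close relatives of CST1 whose probes may share its signal, rose by 2.08 and 1.90, CST3 (cystatin C) by 1.58 and CSTB by 1.23. CST7, a cystatin of the endosome and lysosome, differed by -0.90 (adjusted p = 0.106). Omission of single arrays ended the calls of CST2 and CST4, and the authors' processed values did not call them either.

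Serpins, which trap serine proteases, had 5 of 9 members higher and 1 lower. SERPINB7 measured 5.61, 6.01 and 5.29 on siNC arrays 1, 2 and 3 and 8.60, 8.19 and 8.59 on siEZH2 arrays 1, 2 and 3. All siEZH2 arrays lay above all siNC arrays, for a difference of 2.82 ± 0.24 (SE) (adjusted p = 0.00267). SERPINE2, the thrombin inhibitor nexin-1, rose by 2.96 (3.63 without siNC replicate 2) and SERPINB2, the inhibitor PAI-2, by 2.32. SERPINB1, an inhibitor of neutrophil proteases, fell by 1.40. The SERPINB proteins and CSTB are known to act mostly inside cells. TIMP2, an inhibitor of matrix metalloproteinases, rose by 1.14, and TIMP1 differed by 0.72 (0.196). Single-array omission ended the calls of SERPINE2 and SERPINB1, and calls absent from the authors' processed values were those of SERPINE2 and SERPINB2.

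Genes of regulated secretion, the storage and release of peptide hormones known from neuroendocrine cells, had 9 of 28 higher and 0 lower, although the median was 0.04. At an unadjusted p under 0.05 2 members were lower, and the block called 12 higher and 4 lower. The fit without replicate 2 called 11 and 2, with a median of 0.12. Leaving out single arrays gave 7 to 9 rises. SCG5, the 7B2 chaperone of prohormone convertase 2, measured 8.48, 9.05 and 8.27 on siNC arrays 1, 2 and 3 and 12.29, 12.31 and 12.38 on siEZH2 arrays 1, 2 and 3. The siEZH2 arrays lay close together and far above the siNC arrays, and the difference was 3.72 ± 0.23 (SE) (adjusted p = 0.00176). PCSK1N, the proSAAS inhibitor of prohormone convertase 1, measured 7.14, 6.01 and 6.94 on siNC arrays 1, 2 and 3 and 9.74, 8.97 and 9.58 on siEZH2 arrays 1, 2 and 3, a rise of 2.73. CPE, the carboxypeptidase that trims prohormones, rose by 1.75, PAM, the peptide amidating enzyme, by 1.5, FURIN, the general proprotein convertase, by 1.75, SYT1, a calcium sensor of vesicle fusion, by 2.13, and SCG2, a granin, by 0.96. CALB2, the calcium-binding protein calretinin, which is not secreted, measured 9.0, 9.29 and 8.97 on siNC arrays 1, 2 and 3 and 12.74, 12.94 and 12.70 on siEZH2 arrays 1, 2 and 3. Each siEZH2 value exceeded each siNC value by over 3. CPA4, a secreted carboxypeptidase, rose by 3.54. VGF, STMN2 and ENO2, further neuroendocrine genes, differed by -0.09, -0.11 and -0.45 and were not called. Calls that did not hold on single-array omission were those of PAM and SCG2, and SCG5 and SCG2 were not called in the authors' processed values.

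**Figure D3:**
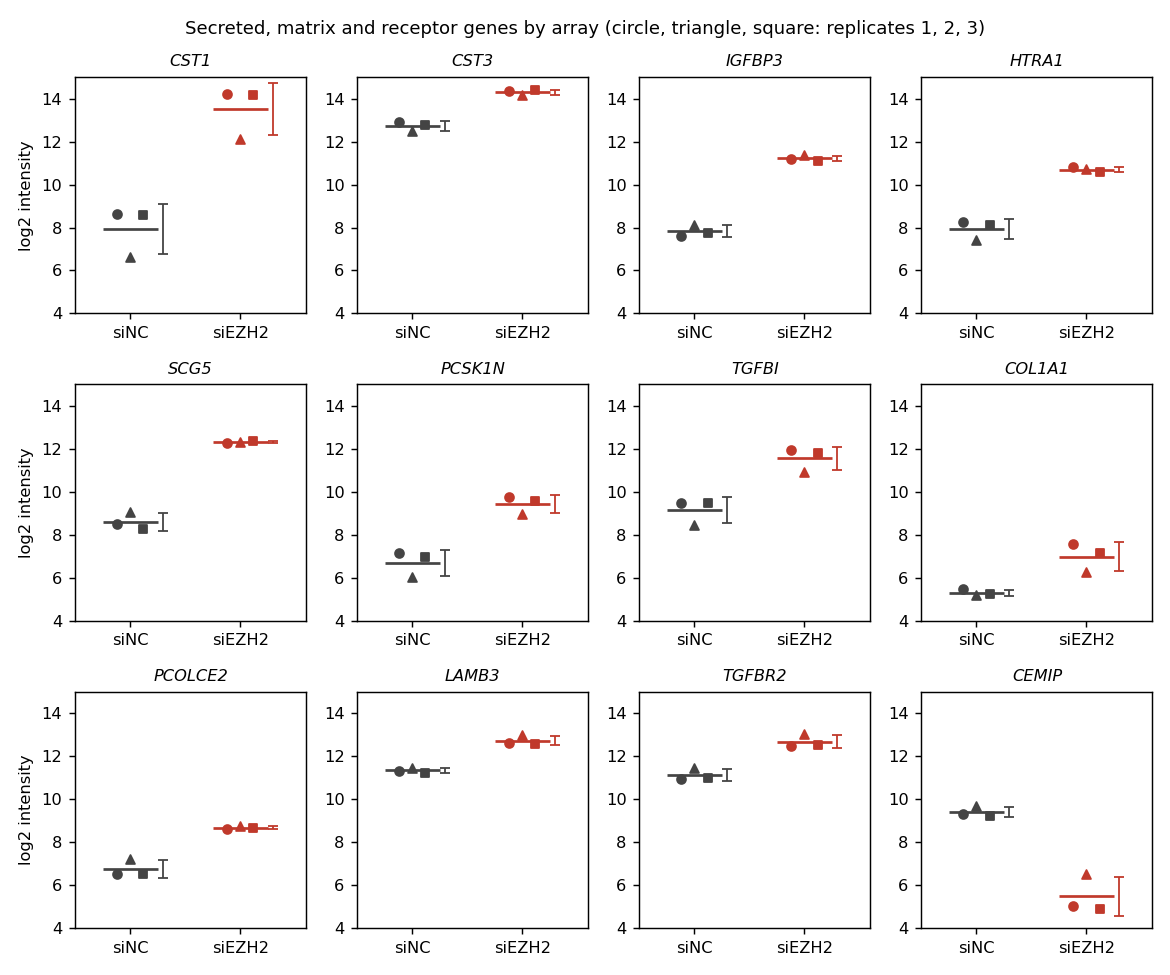
Log2 intensity of 12 secreted, matrix and receptor genes on the 3 siNC and 3 siEZH2 arrays (circle, triangle and square for replicates 1, 2 and 3), with group means as horizontal lines and error bars of 1 SD. For CEMIP the siEZH2 arrays lie below all siNC arrays, and for the remaining 11 genes they lie above.

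Matrix genes were higher across several lists. Collagen chains and the enzymes that hydroxylate, fold and cross-link them had 13 of 34 higher and 1 lower (median 0.54), against 21 and 3 with the block and 16 and 3 without replicate 2. With single arrays omitted there were 3 to 12 rises, with 3 without siEZH2 replicate 3, 4 without siEZH2 replicate 1 and 5 without siNC replicate 1 or siNC replicate 3. COL1A1, the major chain of type I collagen, measured 5.47, 5.19 and 5.25 on siNC arrays 1, 2 and 3 and 7.56, 6.25 and 7.14 on siEZH2 arrays 1, 2 and 3. All siEZH2 values were above the siNC values though low on the array's scale, and the difference was 1.68 ± 0.33 (SE) (adjusted p = 0.0182). COL6A3 rose by 1.48, COL8A1 by 1.25, COL5A1 by 1.21 and COL4A5 by 1.05. COL9A2 fell by 0.96. Of 16 enzymes and chaperones 7 rose and 0 fell, the block calling 1 lower (P3H2). PCOLCE2, which speeds procollagen trimming, measured 6.53, 7.21 and 6.50 on siNC arrays 1, 2 and 3 and 8.62, 8.76 and 8.63 on siEZH2 arrays 1, 2 and 3, a rise of 1.92. LOX and LOXL1, which cross-link collagen and elastin, rose by 1.24 and 1.59, but another LOXL1 probe gave -0.01. PLOD2, a lysyl hydroxylase, rose by 1.22 and SERPINH1, the collagen chaperone HSP47, by 0.98. Of these genes, COL1A1, COL6A3, COL8A1, COL4A5, COL9A2, LOX, LOXL1 and SERPINH1 lost their call in at least 1 fit without a single array, and no call was made in the authors' processed values for COL1A1, COL6A3, COL4A5, COL9A2, PLOD2 and SERPINH1.

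Matrix glycoproteins had 9 of 28 higher and 0 lower (median 0.43), against 14 and 2 with the block, 14 and 1 without replicate 2, and 6 to 10 higher on leaving out single arrays, with 6 without siNC replicate 1, siNC replicate 3 or siEZH2 replicate 3. TGFBI, an integrin-binding matrix protein, measured 9.49, 8.45 and 9.48 on siNC arrays 1, 2 and 3 and 11.92, 10.93 and 11.82 on siEZH2 arrays 1, 2 and 3. The replicate 2 array was lowest in each group without overlap between groups, and the difference was 2.42 ± 0.38 (SE) (adjusted p = 0.0086). SRPX and ECM1 rose by 1.78 and 1.71, TNC (tenascin C) by 1.56, MFGE8, a bridge between dying cells and phagocytes, by 1.65, and CCN2, connective tissue growth factor, by 1.02. FBN2, fibrillin 2, was not detected on any siNC array and was at least 3.49-fold higher in the siEZH2 mean (adjusted p = 0.023). It measured 6.27, 8.31 and 6.39 on siEZH2 arrays 1, 2 and 3, so that bound leans on replicate 2. FN1, fibronectin, was undetected on siNC arrays and not called (adjusted p = 0.0551), and THBS1, thrombospondin 1, differed by 0.17 (0.87). At least 1 single-array omission ended the calls of CCN2 and FBN2, and the authors' processed values did not call FBN2.

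Proteoglycan genes and the enzymes of their sugar chains had 10 of 48 higher and 2 lower (median 0.35), against 22 and 2 with the block, 18 and 3 without replicate 2, and 2 to 10 higher on leaving out single arrays, with 2 without siEZH2 replicate 1, 3 without siNC replicate 3 and 4 without siEZH2 replicate 3. ESM1, the secreted proteoglycan endocan, rose by 3.43 ± 0.69 (SE) (adjusted p = 0.0191), and by 4.15 without siEZH2 replicate 2. CHPF, which extends chondroitin chains, measured 7.10, 6.53 and 7.14 on siNC arrays 1, 2 and 3 and 9.10, 8.89 and 9.41 on siEZH2 arrays 1, 2 and 3 and rose by 2.22. Hyaluronan genes went in opposite directions. CEMIP, which helps cells break hyaluronan down, had the largest fall of all genes and measured 9.32, 9.66 and 9.22 on siNC arrays 1, 2 and 3 and 5.02, 6.51 and 4.89 on siEZH2 arrays 1, 2 and 3. The lowest siNC value exceeded the highest siEZH2 value by over 2, and the difference was -3.93 ± 0.43 (SE) (adjusted p = 0.00374). CEMIP was detected on only 1 siEZH2 array, so the size of its fall rests partly on undetected signal. HAS3, a hyaluronan synthase, measured 4.77, 5.11 and 5.28 on siNC arrays 1, 2 and 3 and 7.20, 7.38 and 7.43 on siEZH2 arrays 1, 2 and 3 and rose by 2.28, although another HAS3 probe gave -0.16. Likewise, HAS3 was detected on only 1 siNC array. HAS2, a further synthase, differed by -0.16 (0.801) and CD44, the hyaluronan receptor, by -0.12 (0.742). SDC1 and SDC4, cell-surface heparan sulfate proteoglycans, were called in opposite directions, at 1.18 and -1.30. The calls of ESM1, SDC1 and SDC4 did not hold on single-array omission, and ESM1 was not called in the authors' processed values.

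Laminins, which build the basement membrane, and the integrins that bind it had 7 of 21 higher and 0 lower (median 0.50), against 10 and 2 with the block, 10 and 1 without replicate 2, and 6 to 10 higher on leaving out single arrays. Without replicate 2 the median was 0.27. Of 8 laminin chains 4 rose, with a median of 1.08, and of 13 integrin subunits 3 rose, with a median of 0.12 and 6 differences below 0. LAMB3, a beta chain of epithelial basement membranes, measured 11.30, 11.46 and 11.22 on siNC arrays 1, 2 and 3 and 12.61, 12.97 and 12.57 on siEZH2 arrays 1, 2 and 3. Its groups did not overlap, and the difference was 1.39 ± 0.19 (SE) (adjusted p = 0.00589). LAMA3, an epithelial alpha chain, rose by 0.89, and LAMC1, the widely shared gamma chain, by 1.59. ITGA3, a laminin receptor subunit, rose by 1.45 (0.89 for another probe), ITGB5 by 1.46 and ITGA5, the fibronectin receptor subunit, by 1.31. ITGB4, of another laminin receptor, differed by -0.15 (0.861), and its partner ITGA6, undetected on siEZH2 arrays, was not called (0.786). The call of LAMA3 did not hold on single-array omission.

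Metalloproteinases, which cut matrix and cell-surface proteins, had 7 of 22 higher and 0 lower (median 0.49), against 13 and 2 with the block, 10 and 2 without replicate 2, and 4 to 8 higher on leaving out single arrays, with 4 without siNC replicate 1, siNC replicate 3, siEZH2 replicate 1 or siEZH2 replicate 3. ADAMTS6 rose by 1.94, MMP3 (stromelysin) by 1.77, MMP1 (interstitial collagenase) by 1.73 and MMP14, the membrane-anchored activator of MMP2, by 1.56. MMP3 was detected on only 1 siNC array. MMP14 measured 6.89, 6.08 and 6.69 on siNC arrays 1, 2 and 3 and 8.12, 8.07 and 8.14 on siEZH2 arrays 1, 2 and 3. The siEZH2 arrays lay close together and above every siNC array. MMP13, another collagenase, differed by -0.41 (0.613). Single-array omission ended the call of MMP1, and calls absent from the authors' processed values were those of MMP3, MMP1 and MMP14.

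The insulin-like growth factor (IGF) system, in which binding proteins hold the ligand and proteases release it, had 5 of 17 higher and 0 lower (median 0.50), against 9 and 1 with the block, 7 and 1 without replicate 2, and 3 or 4 higher on leaving out single arrays, with 3 without siNC replicate 1, siNC replicate 3, siEZH2 replicate 1 or siEZH2 replicate 3. IGFBP3, the main IGF carrier of plasma, measured 7.60, 8.12 and 7.76 on siNC arrays 1, 2 and 3 and 11.20, 11.36 and 11.10 on siEZH2 arrays 1, 2 and 3. Each siEZH2 value exceeded each siNC value by over 2, and the difference was 3.39 ± 0.20 (SE) (adjusted p = 0.00145). HTRA1, a secreted serine protease that can cut IGF-binding proteins, measured 8.26, 7.41 and 8.11 on siNC arrays 1, 2 and 3 and 10.80, 10.72 and 10.57 on siEZH2 arrays 1, 2 and 3 and rose by 2.77. PAPPA, the metalloproteinase that cuts IGFBP4, rose by 1.29, and IGF2R, which carries IGF2 and acid hydrolases to lysosomes, by 0.78. The ligand IGF2 and the receptors IGF1R and INSR differed by 0.20 (0.941), 0.03 (0.965) and 0.05 (0.938). The call of IGF2R did not hold on single-array omission, and the authors' processed values did not call it either.

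Transforming growth factor beta (TGF-beta) and BMP genes had 8 of 44 higher and 0 lower (median 0.23), against 16 and 5 with the block, 12 and 4 without replicate 2, and 6 to 10 higher on leaving out single arrays. Among ligands BMP2 was not detected on the siNC arrays and was at least 2.91-fold higher (adjusted p = 0.00631), TGFB3 was at least 1.86-fold higher, also undetected in siNC cells, and TGFB1 and TGFB2 differed by -0.16 (0.733) and 0.11 (0.916). BMP4 differed by -1.12 (0.152). Among receptors TGFBR2 measured 10.91, 11.45 and 10.97 on siNC arrays 1, 2 and 3 and 12.45, 13.00 and 12.53 on siEZH2 arrays 1, 2 and 3. All siEZH2 values lay above the siNC values, for a rise of 1.55, and ACVR1B rose by 1.19. TGFBR1 differed by 0.04 (0.958). Among feedback genes induced by the pathway PMEPA1 rose by 2.29 (1.34 for another probe), SMAD7 by 1.54 and the decoy receptor BAMBI by 0.88. ID1 and ID3, targets of BMP signalling, differed by 0.07 and 0.06, and the signal carriers SMAD2 and SMAD3 by -0.93 (0.13) and -0.69 (0.0551), none of them called. Single-array omission ended the call of BAMBI, and no call was made in the authors' processed values for BMP2, TGFB3, SMAD7 and BAMBI.

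Axon guidance ligands and receptors, which also steer other migrating cells, had 8 of 42 higher and 1 lower (median 0.35), against 16 and 5 with the block, 11 and 4 without replicate 2 (median 0.23), and 3 to 7 higher on leaving out single arrays, with 3 without siNC replicate 1, siNC replicate 3 or siEZH2 replicate 1. NTN4, a netrin of basement membranes, rose by 2.19, L1CAM, a neural adhesion protein, by 1.79, EPHB2, an ephrin receptor, by 1.76, and SEMA6A by 1.29. EPHB2 measured 5.48, 5.48 and 5.63 on siNC arrays 1, 2 and 3 and 7.36, 7.26 and 7.27 on siEZH2 arrays 1, 2 and 3, with no overlap. EPHA2, another ephrin receptor, fell by 1.01. The list of G protein-coupled receptors and their regulators had 9 of 44 higher and 4 lower (median 0.12), against 15 and 9 with the block, 14 and 8 without replicate 2 (median 0.24), and 5 to 10 higher on leaving out single arrays, with 5 without siNC replicate 3 or siEZH2 replicate 1. RGS4 and RGS17, which switch G proteins off, rose by 3.01 and 2.09. RGS4 measured 7.26, 7.84 and 7.11 on siNC arrays 1, 2 and 3 and 10.40, 10.36 and 10.47 on siEZH2 arrays 1, 2 and 3, each siEZH2 value exceeding each siNC value by over 2. RGCC, a regulator of cell cycle kinases that the list also holds, rose by 3.08. NMU, a peptide ligand, fell by 2.54, F2RL1, the protease-activated receptor 2, by 1.39, and PTGER4, a prostaglandin E2 receptor, by 1.16. At least 1 single-array omission ended the calls of SEMA6A and EPHA2, and calls absent from the authors' processed values were those of SEMA6A, NMU and PTGER4.

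Metallothioneins, small proteins that bind zinc and copper, were called higher for 3 of 6, with all 6 differences above 0 and a median of 1.21. The wider list with metal transporters had 7 of 31 higher and 0 lower, against 15 and 6 with the block and 10 and 4 without replicate 2, and 4 lower at an unadjusted p under 0.05. MT1X measured 12.07, 11.87 and 11.85 on siNC arrays 1, 2 and 3 and 13.56, 13.88 and 13.41 on siEZH2 arrays 1, 2 and 3. Its groups did not overlap, and the difference was 1.69 ± 0.19 (SE) (adjusted p = 0.00428). MT1E, detected on only 1 siNC array, rose by 1.73 and MT1A by 1.08. MT2A differed by 0.59 (0.0833) and MT1G by 1.34 (0.277). These genes are near-identical copies, so their probes may share signal. MTF1, the zinc-sensing transcription factor that induces them, rose by 0.75. Among redox genes TXNIP, an inhibitor of thioredoxin, rose by 1.81, GSTP1 by 1.58 and HMOX1, heme oxygenase 1, by 1.54, within a list of 52 with 6 higher and 2 lower. That list's share of 15.4% was close to the 14.8% over all genes, and the counts were 17 and 11 with the block and 15 and 8 without replicate 2. The calls of MT1A and MTF1 did not hold on single-array omission, and MT1E, MT1A and HMOX1 were not called in the authors' processed values.

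p53-responsive genes had 7 of 29 higher and 2 lower (median 0.51), against 15 and 6 with the block, 12 and 4 without replicate 2, and 2 to 8 higher on leaving out single arrays, with 2 without siNC replicate 1, siNC replicate 3, siEZH2 replicate 1 or siEZH2 replicate 3. The list holds genes known to respond to p53, and the activity of p53 itself was not tested. SESN2, a sestrin that restrains mTORC1, rose by 1.44. TP53INP1 rose by 1.70, and PHLDA3, which restrains AKT, was at least 1.95-fold higher than its undetected siNC level. DDB2, a DNA damage sensor, and CCNG1 fell by 0.93 and 0.82. CDKN1A, the cell cycle inhibitor p21, measured 11.03, 12.05 and 10.89 on siNC arrays 1, 2 and 3 and 12.01, 11.80 and 11.84 on siEZH2 arrays 1, 2 and 3 and was not called (0.56, adjusted p = 0.318). Omission of single arrays ended the calls of TP53INP1, PHLDA3, DDB2 and CCNG1, and no call was made in the authors' processed values for SESN2, TP53INP1, PHLDA3, DDB2 and CCNG1.

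The list of ATF4 targets and amino acid synthesis had 2 of 22 higher and 7 lower (median -0.41), against 3 and 11 with the block and 5 and 8 without replicate 2. Leaving out single arrays gave 4 to 7 falls, with 4 without siNC replicate 1, siNC replicate 3, siEZH2 replicate 1 or siEZH2 replicate 3. ATF4 is the transcription factor that induces these genes when amino acids run short. The 9 synthesis enzymes of the list were all below 0, and 6 fell (median -1.46), whereas its 13 stress regulators and other targets had 2 higher, 1 lower and a median of -0.08.

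ASNS, asparagine synthetase, measured 10.23, 11.15 and 10.29 on siNC arrays 1, 2 and 3 and 8.47, 8.60 and 8.36 on siEZH2 arrays 1, 2 and 3. The siNC replicate 2 array was highest and all siEZH2 arrays lay below all siNC arrays, for a difference of -2.08 ± 0.28 (SE) (adjusted p = 0.00538). The serine pathway was called at each of its 3 steps. PHGDH, which commits the glycolytic precursor to serine, measured 10.91, 10.97 and 10.78 on siNC arrays 1, 2 and 3 and 9.13, 8.84 and 9.03 on siEZH2 arrays 1, 2 and 3. No siEZH2 value came within 1 of any siNC value, and the difference was -1.89 ± 0.17 (SE) (adjusted p = 0.00272). PSAT1, the next enzyme, measured 10.96, 11.05 and 10.92 on siNC arrays 1, 2 and 3 and 9.52, 9.14 and 9.36 on siEZH2 arrays 1, 2 and 3 and fell by 1.63. PSPH, the last step, fell by 1.62. CTH, which makes cysteine, fell by 1.46 and MTHFD2, of mitochondrial one-carbon metabolism, by 0.86. SHMT2, which passes serine carbon to folate, differed by -0.45 (adjusted p = 0.186). ATF4 itself differed by -0.50 (0.171). DDIT3, TRIB3 and ATF3, stress-induced transcription regulators, were not called, and their pair 2 differences were below 0 (-0.86, -1.06 and -0.73) while those of pairs 1 and 3 were above 0. CHAC1, which breaks down glutathione, measured 6.18, 6.27 and 6.17 on siNC arrays 1, 2 and 3 and 7.51, 7.22 and 7.28 on siEZH2 arrays 1, 2 and 3 and rose by 1.13, opposite to ASNS. Single-array omission ended the calls of PSPH and MTHFD2, and the authors' processed values did not call CHAC1.

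The letters TGATGNAA, the centre of the amino acid response element bound by ATF4 with a C/EBP partner, were searched on both strands. They stood in the RefSeq windows of 5 of 19 matched genes of the list (26.3%) and in 1270 of all 35116 windows (3.62%). As with TCACGTGA, the first share counts genes and the second counts windows. The list holds genes known as ATF4 targets, so a higher share is built into it and is no result of these arrays. The 5 were ASNS, which fell, CHAC1, which rose, and ATF3, CEBPG and FGF21, which were not called. The stretches around the motif in ASNS and CHAC1 are shown because these 2 genes were called in opposite directions, with the motif in capitals (in CHAC1 it reads on the opposite strand). They lie at chr7:97872413-97872532 on the minus strand and chr15:40953221-40953325 on the plus strand (GRCh38.p14).
ASNS: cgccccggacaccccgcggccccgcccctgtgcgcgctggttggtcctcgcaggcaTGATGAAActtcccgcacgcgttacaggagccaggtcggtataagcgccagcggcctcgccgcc
CHAC1: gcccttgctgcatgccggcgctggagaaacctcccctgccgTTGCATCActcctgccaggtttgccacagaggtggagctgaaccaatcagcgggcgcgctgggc

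**Figure D4:**
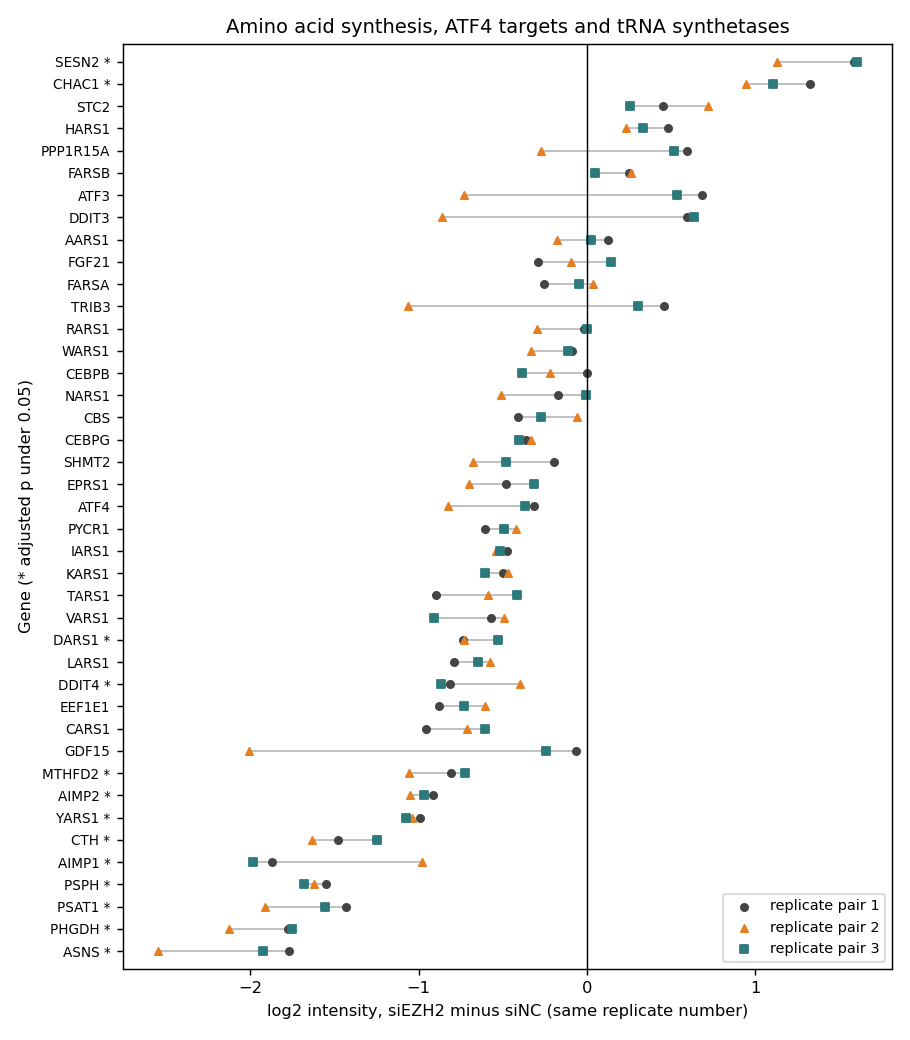
Difference in log2 intensity, siEZH2 minus siNC, in each replicate pair (circle, triangle and square for pairs 1, 2 and 3) for the genes of the amino acid synthesis and tRNA synthetase lists, ordered by their mean difference, with stars on called genes. ASNS, PHGDH, PSAT1, PSPH and CTH lie below -1 in every pair, and TRIB3, DDIT3 and ATF3 spread across 0.

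Aminoacyl-tRNA synthetases, which load amino acids onto tRNAs, had 0 of 19 higher and 4 lower (median -0.52), against 1 and 12 with the block, 0 and 9 without replicate 2, and 1 to 4 lower on leaving out single arrays, with 1 without siNC replicate 1, siNC replicate 3, siEZH2 replicate 1 or siEZH2 replicate 3. At an unadjusted p under 0.05 0 were higher. YARS1 measured 12.18, 12.30 and 12.24 on siNC arrays 1, 2 and 3 and 11.19, 11.26 and 11.16 on siEZH2 arrays 1, 2 and 3 and fell by 1.03. AIMP1 and AIMP2, scaffolds of the synthetase complex, fell by 1.61 and 0.98, and 17 of the 19 differences were below 0. AIMP1 was detected on only 1 siEZH2 array. Amino acid transporters had 1 of 23 higher and 4 lower, against 2 and 9 with the block and 1 and 7 without replicate 2. SLC43A3, which the list holds but which is known as a nucleobase transporter, fell by 1.71, and SLC7A5 and SLC3A2, which together import large neutral amino acids, by 0.82 and 0.85. SLC1A3, a glutamate transporter, was at least 3.1-fold lower, being undetected on siEZH2 arrays. SLC1A1, of the same family, was at least 1.97-fold higher. Calls that did not hold on single-array omission were those of AIMP1, AIMP2, SLC7A5, SLC3A2 and SLC1A3, and AIMP2, SLC1A3 and SLC1A1 were not called in the authors' processed values.

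Mitochondrial ribosomal proteins had 0 of 77 higher and 11 lower (median -0.32), against 3 and 38 with the block, 2 and 36 without replicate 2, and 2 to 17 lower on leaving out single arrays, with 2 without siNC replicate 3, 3 without siEZH2 replicate 3 and 4 without siNC replicate 1 or siEZH2 replicate 1. At an unadjusted p under 0.05 3 were higher. MRPS18B fell by 1.73 and measured 8.90, 8.75 and 8.75 on siNC arrays 1, 2 and 3 and 7.10, 6.95 and 7.15 on siEZH2 arrays 1, 2 and 3, without overlap. MRPL1 and MRPL42 fell by 1.25 and 1.23. The list's median differed between pairs, at -0.50, -0.12 and -0.44 in pairs 1, 2 and 3. Ribosome biogenesis factors had 0 of 60 higher and 5 lower. That share of 8.33% was below the 14.8% over all genes, where falls alone made up 6.92%. Still, 51 differences were below 0 (median -0.30). The block called 4 higher and 26 lower, while the fit without replicate 2 called 2 and 16. UTP18, of the small subunit processome, and DDX18, a helicase, fell by 1.90 and 1.27. At an unadjusted p under 0.05 the limma fit had 1 biogenesis factor higher. Cytosolic ribosomal proteins had 2 of 72 higher and 4 lower (median -0.14), below the share over all genes. The block called 3 and 19, and the fit without replicate 2 called 2 and 15 with a median of -0.26. Single-array omission ended the call of MRPL1, and no call was made in the authors' processed values for MRPL42.

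Histone genes and histone chaperones had 1 of 33 higher and 9 lower (median -0.46), against 3 and 19 with the block and 2 and 15 without replicate 2. H1-2, a linker histone, measured 14.05, 13.14 and 14.08 on siNC arrays 1, 2 and 3 and 11.41, 10.41 and 11.26 on siEZH2 arrays 1, 2 and 3 and fell by 2.73. H2AC18, H3C10 and H2AC6, canonical histones normally made with DNA replication, fell by 1.87, 1.74 and 1.71. H3C10 was detected on only 1 siEZH2 array. The chaperones SSRP1 and CHAF1B fell by 1.57 and 1.35. The part of cell cycle genes, not described here, in these falls was not tested. Genes of MHC class I presentation had 1 of 19 higher and 3 lower, against 4 and 8 with the block and 3 and 7 without replicate 2. TAP2, a subunit of the peptide transporter, fell by 2.04 (-0.90 for another TAP2 probe). The immunoproteasome subunits PSMB10 and PSMB9 fell by 1.46 and 1.03, with PSMB9 detected on only 1 siEZH2 array. The call of PSMB9 did not hold on single-array omission, and the authors' processed values did not call it either.

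Developmental regulators, the best known PRC2 targets, were called at about the share over all genes. Of 69 developmental transcription factors tested, out of 143 on the array, 3 were higher and 6 lower, with a median of 0.01. The block called 15 higher and 13 lower, and the fit without replicate 2 called 10 and 13. DACH1 fell by 1.55 and WT1 by 1.26, and SOX15 rose by 1.15. Of 27 HOX genes tested, out of 46 on the array, 3 rose and 0 fell, against 7 and 4 with the block and 4 and 1 without replicate 2. HOXD1 rose by 1.22 and HOXB6 by 0.95, and HOXC4 was at least 2.29-fold higher than its undetected siNC level. Leaving out siNC replicate 3 ended all 3 HOX calls. Members that did not pass the detection filter were not tested. Fibroblast growth factors and their receptors had 0 of 16 called in either direction by limma, with 1 at an unadjusted p under 0.05 3 higher and 2 lower with the block, and 0 and 2 without replicate 2. The calls of WT1, SOX15, HOXD1, HOXB6 and HOXC4 did not hold on single-array omission, and WT1, SOX15, HOXB6 and HOXC4 were not called in the authors' processed values.

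Some called genes passed from undetected to detected. In all, 74 called higher were undetected on every siNC array and 50 called lower were undetected on every siEZH2 array. Genes undetected in a group passed the detection filter only through arrays outside that group. How many genes tested were undetected in each group is not given, so these counts cannot be read as shares. PLD5, a phospholipase D family member, measured 4.65, 4.81 and 4.70 on siNC arrays 1, 2 and 3 and 9.09, 9.18 and 9.01 on siEZH2 arrays 1, 2 and 3 and was at least 15.1-fold higher (adjusted p = 0.000211). NES, the intermediate filament nestin, was at least 3.88-fold higher, BMF, a BCL2-binding promoter of cell death, at least 3.15-fold, and ASIC1, an acid-sensing sodium channel, at least 2.83-fold. Single-array omission ended none of these calls, and no call was made in the authors' processed values for BMF.

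Among the 15 largest rises not yet described, VSTM2L rose by 3.26, MAP3K7CL by 3.29, ANGPTL2, an angiopoietin-like secreted protein, by 3.16, and ANGPTL4, an inhibitor of lipoprotein lipase, by 3.21, although another ANGPTL4 probe gave 0.96 and the difference was 2.53 without siNC replicate 2. DEFB103A, a beta-defensin with a near-identical copy, rose by 3.37, with pair differences of 4.59, 1.5 and 4.03. It was detected on only 1 siNC array. Without siEZH2 replicate 2 its difference was 4.43, and its call was also lost with no background correction or no detection filter. Among the 15 largest falls THOP1, a cytosolic peptidase, measured 9.87, 9.02 and 9.75 on siNC arrays 1, 2 and 3 and 6.58, 6.14 and 6.50 on siEZH2 arrays 1, 2 and 3 and fell by 3.14. ALOX5AP, which presents arachidonic acid for leukotriene synthesis, fell by 2.76, COXFA4L3 by 2.73 and UCP2, a mitochondrial carrier, by 2.71. ALOX5AP was detected on only 1 siEZH2 array and UCP2 on 2. Another 6 of the 15 belong to the cytokine and cell division genes left aside here. Single-array omission ended the call of DEFB103A, and calls absent from the authors' processed values were those of ANGPTL4 and DEFB103A.

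The knockdown was also read on 1 siEZH2 and 1 siNC array with TNFalpha, which share no array with the fit. They allow no test. The difference had the same direction there for 1813 of the 1817 called genes (99.8%) and for 8211 of the 10458 genes not called (78.5%). CTSB differed by 2.65 on these arrays, CST1 by 5.43, SCG5 by 4.26, IGFBP3 by 3.34, CEMIP by -4.36 and ASNS by -2.27. All 12 arrays were normalized together.

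**Figure D5:**
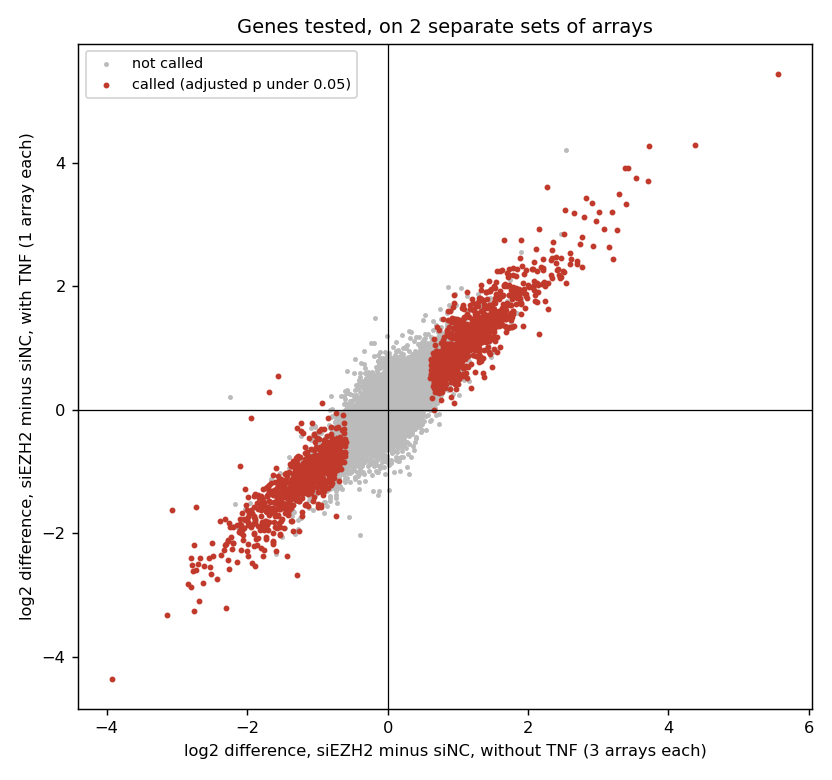
Log2 difference, siEZH2 minus siNC, of all 12275 genes without TNFalpha (x axis, 3 arrays against 3) and with TNFalpha (y axis, 1 array against 1), with called genes in red. Of the 1817 called genes 1813 lie at the lower left or upper right, where both differences have 1 sign.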

How the data were processed

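Total RNA from MDA-MB-231 cells was measured on 12 Illumina HumanRef-8 bead arrays. The authors deposited average signal intensity per probe, exported by BeadStudio 3.2.7 with no normalization, per the file headers. A detection score per probe and array was deposited beside it, and detection p was taken as 1 minus it. Here limma 3.58.1 (R 4.3.3) corrected background (nec, offset 16), quantile-normalized the 12 arrays and took log2. Kept probes had a detection p under 0.05 on at least 3 arrays, and the brightest probe stood for each gene. Groups were fitted with lmFit and eBayes on 6 arrays, with Benjamini-Hochberg adjustment over 12275 genes. On the 6 arrays 55.6% to 58.2% of probes were detected. The number of arrays limits precision. Of these steps only the limma fit was tested on simulated data, with independent noise per array and without the replicate pattern.

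Of 22184 probes, 17828 symbols were current in RefSeq GRCh38.p14, 3305 were updated as synonyms, 183 were ambiguous and 868 unmatched. Genes with close copies may share probes.

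Replicate numbers were checked for pairing: deviations from group means correlated at 0.757, 0.836 and 0.653 within numbers 1, 2 and 3, so numbers were taken as pairs. Across numbers 1 and 3 the correlations were 0.418 and 0.426, and across number 2 and the others -0.767 to -0.598. The authors also deposited processed log2 values, which are centred per probe. Their centring appears to have been done separately for replicates 1 and 2 and for the other arrays, which was not tested. Per array their medians came to -0.03, 0.01 and 0.03 for siNC 1 to 3 and -0.05, 0.05 and 0.21 for siEZH2 1 to 3. Scale and direction were read by comparison with the signals. A further 84 columns holding per-sample values were not used.

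Named genes were EZH2, the 15 largest called rises and falls, up to 4 called genes per direction in each of 55 lists, and members carrying a list's defining role. Some genes are not reported here, though counts over lists include them. Some further called members were named after their values were seen. Members and lists were chosen with earlier results of these data known. A gene undetected on all arrays of a group was given as a bound, from the lowest detected signal or its own if higher. Genes detected on only some arrays of a group were given as plain differences, which take in undetected signal. Alternatives changed the replicate block, background correction, scaling, detection filter, probe rule, source values and arrays included.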

Additional observations from a re-analysis of the deposited data

How the results depend on the processing

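The count of 1817 called genes and the EZH2 difference of -2.78 were recomputed under 17 alternatives. The count lay between 1666 and 1974 with no background correction, 75th percentile scaling, no detection filter, detection on all 6 arrays or averaged probes. It was 5348 with the replicate block, 950 in the authors' processed values (3233 at an unadjusted p under 0.05) and 5453 in those values with the block. Leaving out single arrays gave 611 to 2168. Leaving out both arrays of replicate 2 gave 3802. Leaving out both of replicate 1 or of replicate 3 gave 0 by limma, with 1981 and 1720 at an unadjusted p under 0.05. In the authors' values EZH2 missed the threshold without the block (-2.03, adjusted p = 0.0522) and passed it with the block (7.76e-07). From the normalized signals it missed it without both arrays of replicate 1 (-2.83, 0.125) or replicate 3 (-2.75, 0.168), and lay between -3.07 and -2.45 on leaving out single arrays. The paired fit with the block ended no call among the 254 genes named by rule, and the authors' processed values with the block kept 253 of them. Of 4274 values of these genes under alternatives, 2979 kept direction and side of the threshold, 1295 missed the threshold and 0 reversed. The naming rule asked for a call and 1 direction in all 3 pairs, so reversals were largely precluded in advance. With single arrays left out, 105 of the 254 were called in all 6 fits. The cause was not tested. Each group had 3 arrays from 1 line and the labels name no second EZH2 siRNA, so effects of the siRNA itself and of EZH2 loss cannot be told apart. Only genes detected on at least 3 arrays were tested.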

Other observations

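Genes of further lists were called as well. HSPA5, the main chaperone of the endoplasmic reticulum (ER), measured 9.52, 10.11 and 9.59 on siNC arrays 1, 2 and 3 and 12.13, 12.19 and 12.09 on siEZH2 arrays 1, 2 and 3. Its groups did not overlap, and the limma difference was 2.40 ± 0.21 (SE) (adjusted p = 0.00267). P4HB, a disulfide isomerase and prolyl hydroxylase subunit, rose by 1.15. In all, 4 of 26 ER chaperones and folding enzymes were higher and 0 lower, with 1 lower at an unadjusted p under 0.05. That share of 15.4% was close to the 14.8% over all genes. The replicate block called 11 higher and 4 lower, and the fit without replicate 2 called 12 and 1. SRPRB, the membrane anchor of the signal recognition particle receptor, went the other way and measured 10.35, 11.44 and 10.29 on siNC arrays 1, 2 and 3 and 8.39, 8.74 and 8.26 on siEZH2 arrays 1, 2 and 3, a fall of 2.23. VCP, the ATPase that extracts proteins from the ER, fell by 1.26. MGAT4B, an N-glycan branching enzyme, rose by 1.29, while ALG13, which builds the glycan precursor, fell by 1.46 (-0.74 for another probe). The call of P4HB did not hold on single-array omission, and P4HB and MGAT4B were not called in the authors' processed values.

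Genes of lipid droplets, lipolysis and fatty acid oxidation had 5 of 36 called in each direction, against 9 higher and 11 lower with the replicate block and 7 and 8 without replicate 2. PLIN3, a lipid droplet coat protein, rose by 1.10 and ABHD5, an activator of triglyceride lipase, by 0.93. SC5D, a late enzyme of cholesterol synthesis, rose by 1.6. FADS1, a fatty acid desaturase, measured 10.48, 10.94 and 10.37 on siNC arrays 1, 2 and 3 and 8.87, 8.75 and 9.12 on siEZH2 arrays 1, 2 and 3 and fell by 1.68, without overlap between groups. ACOX3, of peroxisomal oxidation, fell by 1.56, CERS6, a ceramide synthase, by 1.12, and the nuclear receptors PPARG and NR1H3, which regulate lipid genes, by 1.14 and 1.72. RARB, a retinoic acid receptor, rose by 1.56. Among BCL2 family genes and caspases 4 of 36 were higher and 0 lower, with 1 lower at an unadjusted p under 0.05, against 13 and 6 with the replicate block and 11 and 2 without replicate 2. BNIP3L, a mitophagy receptor that hypoxia also induces, rose by 2.34. Among keratins and other intermediate filament genes 4 of 20 were higher, against 7 higher and 4 lower with the replicate block and 6 and 2 without replicate 2. KRTAP2-4 differed by 2.91 (3.50 without siEZH2 replicate 2) and the hair keratin KRT34 by 2.15 (2.76 without siNC replicate 2). KRT34 was detected on only 1 siNC array. KCNK1, a potassium leak channel, measured 8.64, 8.32 and 8.96 on siNC arrays 1, 2 and 3 and 6.67, 6.42 and 7.0 on siEZH2 arrays 1, 2 and 3 and fell by 1.94, with every siEZH2 array below every siNC array. DKK3, a secreted member of the Dickkopf family, fell by 1.73, and FERMT1, the integrin activator kindlin 1, rose by 1.98. Of these genes, PLIN3, ABHD5, SC5D, PPARG, KRTAP2-4 and KRT34 lost their call in at least 1 fit without a single array, and no call was made in the authors' processed values for ABHD5, RARB, KRTAP2-4 and DKK3.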
